A study of Mus musculus with 2 samples.

Results

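The erythroid microRNAs miR-451a, miR-144-3p, miR-144-5p, miR-486a-5p and miR-486b-5p were followed in mouse ID-8 ovarian tumours from 1 bevacizumab-treated and 1 control IgG-treated group. They were chosen by name as red-cell miRNAs, a readout of blood content, and every array probe listing one of them was kept. This gave 5 of the 1915 miRNA names on the array, read by 4 of its 1900 miRNA probes, because miR-486a-5p and miR-486b-5p share 1 probe. ID-8 LUC2 cells, a luciferase-carrying mouse ovarian cancer line, were injected into the peritoneal cavity of C57BL/6 mice aged 5 weeks. Bevacizumab, an antibody raised against human VEGF-A, was given at 5 mg/kg from day 14 and 2 times a week to one group, and control IgG was given at the same dose and times to the other. Tumours were taken at day 42 and total RNA was labelled with the dye Cy5 for 1 Toray 3D-Gene array per group. How many mice contributed to each RNA is not stated, and the labels differ on whether it was extracted from tumour or from cells. With 1 array per group no test between the groups was possible, no p-value is given, and every difference below is between these 2 arrays.

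miR-144 and miR-451a are cut from one primary transcript that the transcription factor GATA1 switches on as red cells mature, and both accumulate in mature erythrocytes. miR-144 follows the usual route, in which Drosha releases a hairpin and Dicer cuts off its loop. miR-451a does not: its hairpin is too short for Dicer and is sliced by Argonaute 2, so it is made without Dicer. miR-486-5p is made from a locus inside the ankyrin gene Ank1 and is abundant in red cells, and it is also made in striated muscle. Blood is one source of these miRNAs in a tumour sample, and the arrays hold no direct measure of it. In bulk RNA, fewer red cells and less miRNA per cell cannot be told apart.

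Mature sequences of 3 of the 5 members were taken from RefSeq (GRCm38.p6) and are shown with the seed, bases 2 to 8, in capitals, because the seed sets which targets an miRNA pairs with. miR-101a-3p, at chr4:101346957-101346977 on the minus strand, is added because it came nearest to sharing a member's seed.
mmu-miR-451a: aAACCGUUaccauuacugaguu
mmu-miR-144-3p: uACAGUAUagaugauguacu
mmu-miR-144-5p: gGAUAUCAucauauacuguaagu
mmu-miR-101a-3p: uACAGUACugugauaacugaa

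The 3 member seeds differed from one another. Of the 1915 miRNA names on the array 1623 had a RefSeq mature sequence, and none of these other miRNAs shared bases 2 to 8 with miR-451a, miR-144-3p or miR-144-5p. miR-101a-3p shared bases 2 to 7 with miR-144-3p and differed first at U8C, counted from 1 at the 5′ end with the miR-144-3p base given first. miR-486a-5p and miR-486b-5p are named only.

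The hairpins are shown to place the mature strands, which are in capitals and carry the difference in processing between miR-451a and miR-144.
Mir451a: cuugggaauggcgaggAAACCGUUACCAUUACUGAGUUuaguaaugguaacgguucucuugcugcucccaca
Mir144: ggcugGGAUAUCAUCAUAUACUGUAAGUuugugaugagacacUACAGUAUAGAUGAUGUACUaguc

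The 72-base Mir451a hairpin lies at chr11:78073170-78073241 on the plus strand, and its 22-base mature strand at chr11:78073186-78073207. The 66-base Mir144 hairpin lies at chr11:78073005-78073070 on the same strand, 99 bases before Mir451a. No other gene of the RefSeq table overlaps Mir144, and the one that overlaps Mir451a is Mir451b, which spans the same bases on the minus strand. In the structure predicted by RNAfold, miR-451a occupied bases 17 to 38 of its hairpin and ran into the terminal loop, which took its last 4 bases. miR-144-5p lies at chr11:78073010-78073032 and miR-144-3p at chr11:78073047-78073066. Neither strand of miR-144 reached into its loop of 6 bases: miR-144-5p had 20 of 23 bases paired and miR-144-3p 19 of 20. The miR-486 hairpins, Mir486 and Mir3107, overlap each other and lie within the bounds of Ank1.

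Levels are spot intensities in scanner units above the blank level, the mean of each array's blank spots. Blank spots lay at 185 ± 4.03 units on the bevacizumab array and at 72.8 ± 0.828 on the control array (SD over 896 spots less the highest and lowest 5%). A probe was called detected above that mean plus 2 SD, which was 8.06 units above the blank level on the bevacizumab array and 1.66 on the control array. The bevacizumab array detected 940 probes and the control array 1416. Of these, 917 were detected on both and 499 on the control array only. Before any scaling the median of the 917 was 1.77 times as high on the bevacizumab array, while 5 control probes printed in 8 spots each were 4.62 to 5.13 times as high. Differences are log2 values after background correction with an added offset of 50 and quantile normalization, as bevacizumab minus control. They are relative to the other miRNAs and understate the change of dim ones. From the repeat spots of the control probes, 1 spot per array gives a log2 difference with an SD of 0.16, which covers error within these arrays only. The dimmest of these control probes had 522 units above the blank level on the bevacizumab array and 104 on the control array, so dimmer probes are not covered.

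miR-451a, which represses Ywhaz in erythroid cells, had 144 units above the blank level on the bevacizumab array, against 1569.9 units on the control array. It was detected on both arrays and was far lower on the bevacizumab array, where even the unsubtracted spot read less, at 329 units against 1643. It was the 188th brightest of 1900 probes on the bevacizumab array and the 32nd on the control array. After normalization its level was 7.56 on the bevacizumab array and 10.40 on the control array, a log2 difference of -2.84, or 7.17-fold lower. Before any scaling it was 10.9-fold lower. Of the 917 probes, 106 (11.6%) were at least 2-fold lower, and 7 were as low as miR-451a or lower, itself included. Among the 189 probes of the control array's brightest 10% that both arrays detected, to which miR-451a belongs, 89 (47.1%) were at least 2-fold lower. Being lower was thus common among probes picked for brightness on the control array, a choice that itself favours lower values on the other array. By size, miR-451a stood near the low end of all probes.

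**Figure D1:**
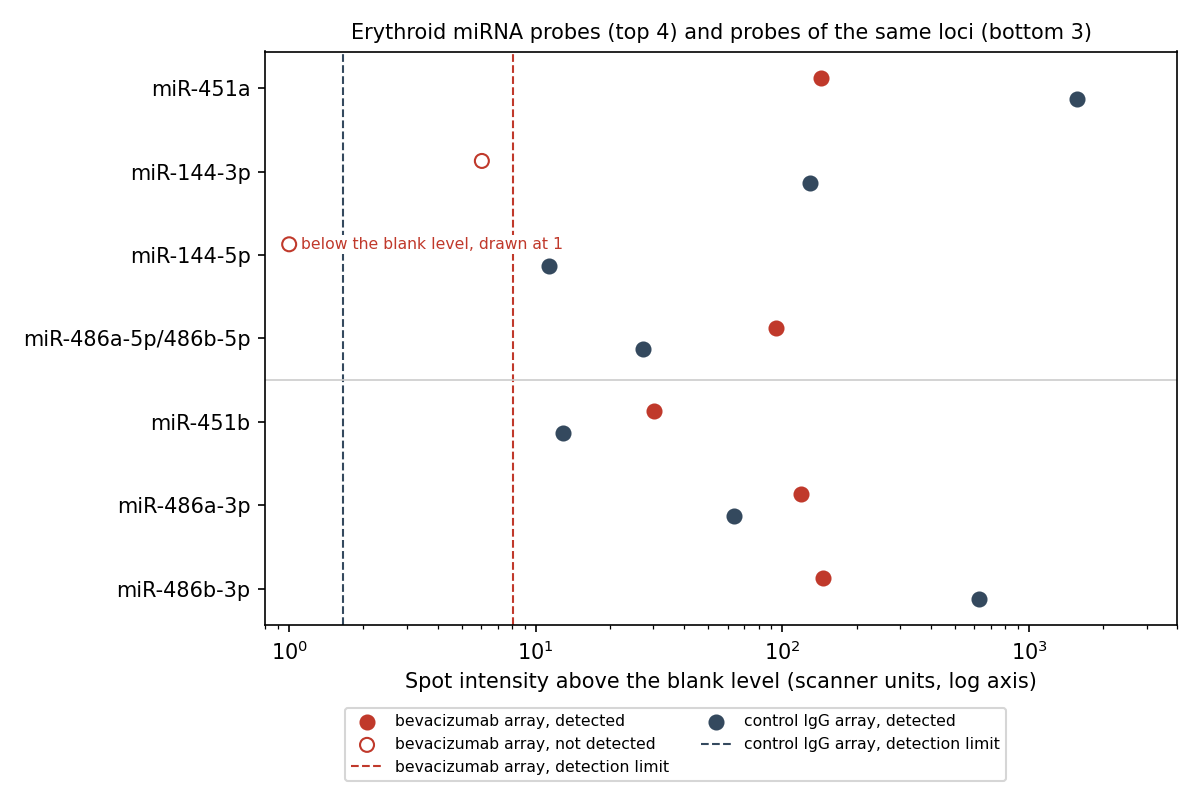
Spot intensity above the blank level (log axis, scanner units) for the 4 erythroid probes and 3 probes of the same loci, with 1 spot per probe on each array, bevacizumab in red and control IgG in dark blue. Dashed lines are the detection limits at 8.06 and 1.66 units, and miR-451a has 144 units on the bevacizumab array against 1569.9 on the control array, while the shared miR-486 probe lies the other way, at 94.5 against 27.1.

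miR-144-3p, the strand known from human erythroid cells to repress the antioxidant regulator NRF2, read 6.04 units above the blank level on the bevacizumab array, against 129 units on the control array. It was below the detection limit of the bevacizumab array, whereas on the control array it lay 156 blank SDs above the blank level and ranked 192nd. The normalized difference can be given only as a bound, at least 3.18-fold lower, taken against the lowest level that the bevacizumab array detected. Of 1416 probes detected on the control array, 499 (35.2%) were not detected on the bevacizumab array. Of those 499, 15 (3.01%) had a bound of 2-fold or more, and miR-144-3p had the second highest of these. All these bounds use the same lowest level, so their order is only that of brightness on the control array.

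miR-144-5p, the other strand of the same hairpin, lay below the blank level on the bevacizumab array, at -3.28 units, against 11.3 units above it on the control array. It was detected on the control array only. As reported it was at least 1.07-fold lower, and this bound moved with the processing. It was 1.55-fold without the offset, 1.61-fold after subtracting the blank mean, 3.39-fold in the authors' deposited table and 6.78-fold with scaling to the control probes. Both miR-144 strands were thus seen on the control array alone, and as reported only the bound of miR-144-3p passed 2-fold.

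The single miR-486 probe, which reads both miR-486a-5p and miR-486b-5p, known to repress Foxo1, had 94.5 units above the blank level on the bevacizumab array, against 27.1 units on the control array. It was detected on both arrays, 23.5 blank SDs above the blank level on the bevacizumab array and 32.8 on the control array. Its rank among the 1900 probes was 248 on the bevacizumab array and 457 on the control array. The normalized levels were 7.13 on the bevacizumab array and 6.30 on the control array, a log2 difference of 0.82, or 1.77-fold higher. This is below the 2-fold size, which 96 of the 917 probes (10.5%) passed upward, and 126 probes were as high or higher. The size and direction depended on the processing. The probe passed 2-fold upward without the offset (3.09-fold), after subtracting the blank mean (3.08-fold) and without scaling (3.48-fold). It was 1.44-fold higher in the authors' deposited table and at a log2 difference of 0.020 with local background, but at -0.48 when the arrays were scaled to the control probes.

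**Figure D2:**
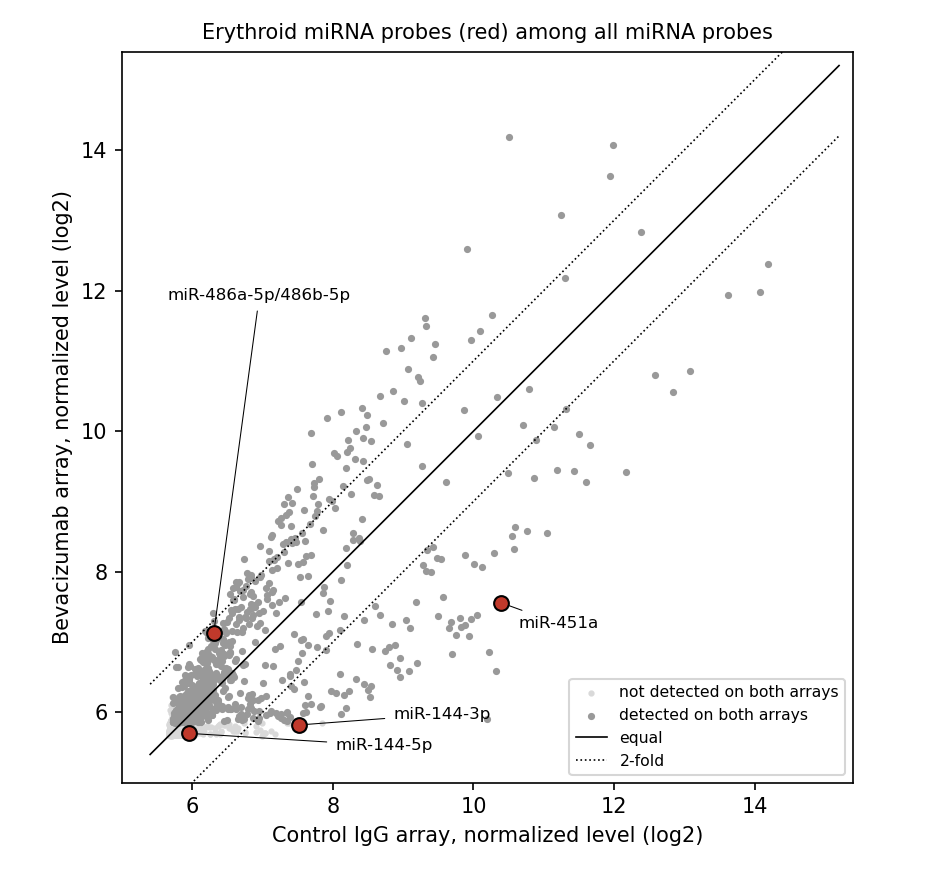
Normalized log2 levels of all 1900 miRNA probes, control IgG array on the horizontal axis and bevacizumab array on the vertical, with the 4 erythroid probes in red and the 917 probes detected on both arrays in dark grey. miR-451a lies below the dotted 2-fold line at 7.56 against 10.40, miR-144-3p lies along the lower edge where the bevacizumab array did not detect probes, and the miR-486 probe lies between the equality and upper 2-fold lines.

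miR-451a was set against the rest of the group because it alone needs no Dicer. Its log2 difference less that of the miR-486 probe was -3.66 (12.7-fold). The repeat-spot SD for such a contrast was 0.22, but it comes from control probes brighter than the miR-486 probe, before offset and normalization. It does not measure the error of so dim a probe. In blank-subtracted signals, where any common factor between the arrays cancels, the contrast was 38.0-fold. The authors' deposited table gave the same fold, which is no separate check, because its values followed the blank-subtracted spot times a factor per array. The contrast was below 0 under each of the 11 other ways of processing tried, with a range from -5.25 to -2.98. Not all of these could change it. Raising or dropping the detection limit left the levels of both probes as they were, at -3.66. Scaling to the control probes, the deposited table and the unscaled signals differ only by a factor per array, which cancels. As reported, miR-144-3p, which Dicer does cut, was lower as miR-451a was, while the miR-486 probe was not. The order of miR-144-3p and miR-451a depended on the processing. As reported, the bound of miR-144-3p (3.18-fold) was smaller than the fold of miR-451a (7.17-fold), whereas without scaling miR-144-3p was at least 15.9-fold lower and miR-451a 10.9-fold lower. The bound also exceeded the fold of miR-451a without the offset (17.3-fold against 9.40-fold), after subtracting the blank mean, in the authors' deposited table (38.7-fold against 26.3-fold) and with scaling to the control probes. miR-144-3p and miR-486 did not lie on opposite sides of 0 under every alternative either. With scaling to the control probes both were below 0, but miR-144-3p was still far lower, with a bound of -6.27 against -0.48 for miR-486. With local background the signs differed, but the bound of miR-144-3p was only at a log2 value of -0.35 and miR-486 was at 0.020. The part of Dicer in these values was not tested.

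The direction of miR-451a did not depend on the processing. It was lower under every alternative, from 5.53-fold lower with no background correction to 26.3-fold lower in the authors' deposited table and 52.8-fold lower when scaled to the control probes. On the control array the background measured around many bright spots was as high as the spot itself, and this touched 34 of the 106 lower probes. miR-451a was not among them. Its spot was 1.53 times its local background on the bevacizumab array (329 against 216 units) and 2.79 times on the control array (1643 against 589 units). With local background in place of the blank spots, 37 of the 106 lower probes were still at least 2-fold lower and 44 turned above 0. miR-451a was then 11.8-fold lower, and among the 917 probes no other had a difference as low. It was 1 of 30 probes that were at least 2-fold lower under all of the normalizations, background corrections and scales tried. miR-144-3p was less secure on this point: its spot stood 32.8 units above its local background on the bevacizumab array and 26.1 on the control array, and its bound with local background was 1.27-fold lower.

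**Figure D3:**
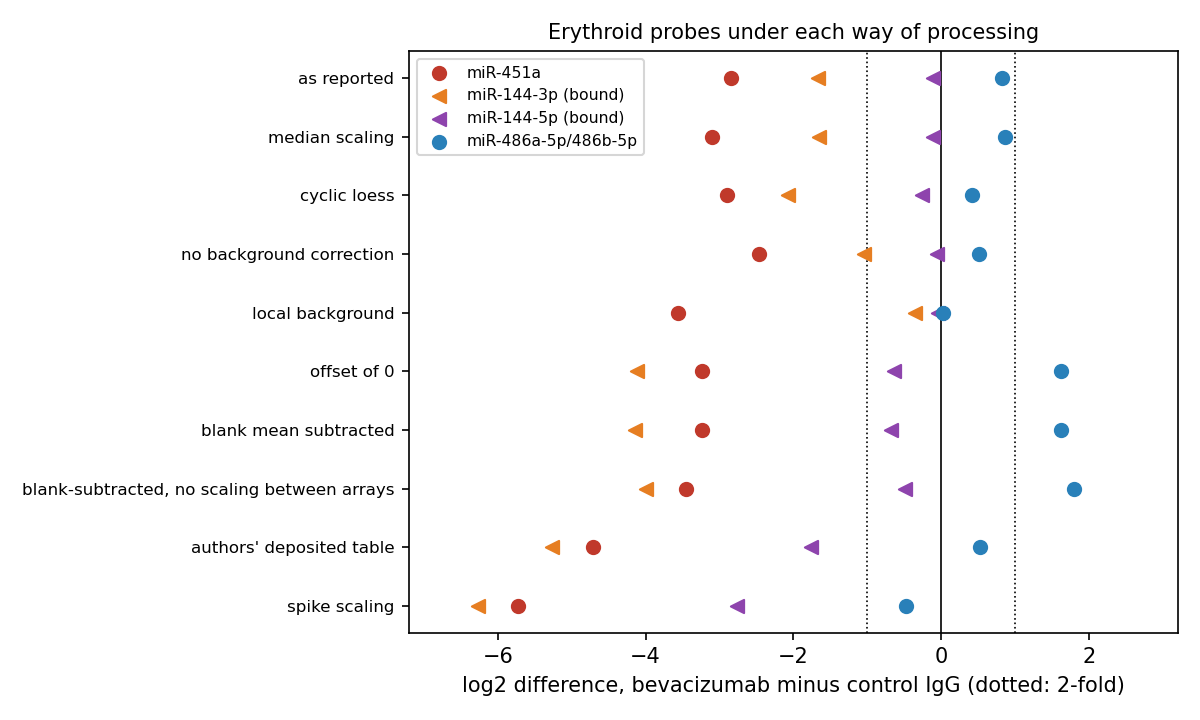
Log2 difference (bevacizumab minus control IgG) of each erythroid probe under the reported processing and 9 alternatives, with left-pointing triangles for bounds and dotted lines at 2-fold. miR-451a stays left of the 2-fold line in every row, from -2.47 to -5.72, while the miR-486 probe runs from 1.80 down to -0.48 and crosses 0 with scaling to the control probes.

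Other miRNAs of the same loci did not all follow the member beside them. All 3 such probes were detected on both arrays, and 1 of them was at least 2-fold lower, against 11.6% of all 917 probes. The lower one ranked 76 on the control array, within its brightest 10%, where the share lower was 47.1%. miR-486b-3p, the other strand of the miR-486b hairpin, had 146 units above the blank level on the bevacizumab array, against 625 units on the control array, and was 3.05-fold lower. It stayed lower under every alternative, with log2 differences from -4.37 to -1.34. miR-486a-3p had 119 units on the bevacizumab array, against 63.3 units on the control array (log2 difference 0.53). Its sign was not stable: it was -0.24 with local background, -0.35 in the authors' deposited table and -1.36 when scaled to the control probes. miR-451b, read from the strand opposite miR-451a, had 30.3 units on the bevacizumab array and 12.9 units on the control array (log2 difference 0.28), but was at -0.03 in the authors' deposited table and at -1.04 when scaled to the control probes. The miR-486 strands thus gave differences on both sides of 0 as reported, and none of the values of miR-451b was as low as the highest of miR-451a, -2.47.

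By nearest levels on the 2 arrays, a likeness over only 2 points, miR-451a was closest to miR-29b-3p (log2 difference -2.88), then miR-29c-3p (-2.67) and miR-652-5p (-2.63). The miR-486 probe was closest to miR-7007-5p (0.85), miR-151-3p and miR-423-3p (0.77 each). Among the 499 probes seen on the control array alone, miR-101a-3p was the nearest in level to miR-144-3p, followed by miR-1839-3p and miR-142a-3p. miR-101a-3p, whose sequence is printed above, had 2.19 units above the blank level on the bevacizumab array and 124 units on the control array. For miR-144-5p the nearest were miR-7002-3p, miR-300-3p and miR-340-5p, among many dim probes at nearly the same level.

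A wider list of 6 miRNAs that are abundant in red cells or rise late in red-cell maturation was mostly lower as reported. Both arrays detected 5 of them, with a median log2 difference of -1.64, against 0.14 for all 917 probes. Of the 5, 3 passed 2-fold downward and none upward, against 11.6% and 10.5% of the 917 probes. The 3 lower ones ranked 27, 49 and 159 on the control array, within its brightest 10%, where the share lower was 47.1%. miR-16-5p, a cell-cycle repressor that is plentiful in many cell types, had 265 units above the blank level on the bevacizumab array, against 1789 units on the control array, and was 4.76-fold lower. miR-25-3p was 3.36-fold lower and miR-22-3p 3.12-fold lower, whereas miR-92a-3p (log2 difference -0.77) and the hypoxia-induced miR-210-3p (-0.37) were within 2-fold. miR-185-5p was detected on the control array only. With local background the log2 differences of miR-16-5p, miR-25-3p, miR-22-3p and miR-92a-3p were 1.48, 0.55, 0.46 and 0.15. On the control array the spots of miR-16-5p (1862 against 2331 units) and miR-25-3p (249 against 276) lay below their local background. The miR-22-3p spot was only 14.4 units above it, so these values say little on the direction of these probes. None of the 6 is specific to red cells.

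Of 6 miRNAs known to fall as red cells mature, both arrays detected 5, with a median log2 difference of -0.20. Of the 5, 1 passed 2-fold downward, against 11.6% of all 917 probes. That one was miR-221-3p, which restrains the receptor KIT in human erythroid precursors, at 2.81-fold lower. It ranked 181 on the control array, within the brightest 10%, where the share lower was 47.1%. With local background its log2 difference was 0.33, its control-array spot lying below the local background. miR-222-3p, from the same cluster, was at -0.08 and miR-24-3p at -0.20. These 2 values depended on the processing. When scaled to the control probes they were -2.19 and -3.05, and with local background -0.38 and 1.63. As reported, the myeloid miR-223-3p was at -0.81 (-3.74 when scaled to the control probes) and the lymphoid miR-150-5p at 0.33 (-1.21 when so scaled).

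Summed signals of markers of other cell types, not scaled between the arrays, were also lower on the bevacizumab array. The signals of the 4 erythroid probes, counted from the blank level with negative values as 0, summed to 244 units on the bevacizumab array and 1737 on the control array. miR-451a gave 144 and 1570 of these units, whereas the miR-486 probe was higher on the bevacizumab array, at 94.5 against 27.1. The 2 endothelial miR-126a probes summed to 86.5 units on the bevacizumab array and 997 on the control array, of which miR-126a-3p gave 66.3 and 823. The 5 leukocyte probes (miR-142a-3p, miR-142a-5p, miR-223-3p, miR-150-5p and miR-155-5p) summed to 80.0 units on the bevacizumab array and 282 on the control array. Of these, 2 were detected on the bevacizumab array and 5 on the control array, against 49.5% and 74.5% of all 1900 probes. miR-142a-3p and miR-142a-5p, which mark blood cells, were not detected on the bevacizumab array and had 112 and 68.0 units on the control array. Measured from its local background, the miR-142a-3p spot was not lower, at 39.2 units on the bevacizumab array and 31.8 on the control array. The lymphoid miR-150-5p went the other way, with 44.2 units on the bevacizumab array and 21.1 on the control array. The 4 striated muscle probes, which bear on miR-486 because muscle makes it, summed to 473 units on the bevacizumab array and 2831 on the control array. miR-1a-3p gave 10.5 and 1348 of these units. Its bevacizumab value was only just above the detection limit of 8.06 units and was below a limit of 5 SD. All 3 muscle probes that both arrays detected, miR-1a-3p included, passed 2-fold downward, against 11.6% of the 917 probes and 47.1% of the control array's brightest 10%. With local background the endothelial miR-126a-3p moved to a log2 difference of 0.66 (-2.87 as reported), the muscle miR-1a-3p to 0.50 (-4.28) and miR-133a-3p to 0.94 (-1.18). On the control array the miR-126a-3p and miR-1a-3p spots lay below their local background, and the miR-133a-3p spot was only 13.5 units above it. Others of these lists kept their sign there: miR-126a-5p was at -0.39, with both its spots below local background, and miR-133b-3p at -1.70. miR-133b-3p was at least 2-fold lower under every alternative, from -3.90 to -1.11. The part of vessels, leukocytes or muscle in the miR-451a and miR-486 values was not tested.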

How the data were processed

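Per the file headers, the deposited scanner files give linear spot and local background intensity at 635 nm from 3 scan gains, neither background-corrected nor normalized. The authors' deposited value table holds linear intensity, which followed the blank-subtracted spot times a factor per array, with dim probes empty. The scanner and table software are not given in the sources used here. For RNA extraction the texts name different columns, RNeasy in one and miRNeasy in the other.

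Spots were corrected with limma 3.58.1 (R 4.3.3) by the normexp model, with background estimated from 896 blank spots and 50 added. They were then log2-transformed and quantile-normalized over 1900 miRNA probes. These steps were tried on simulated data drawn from the control array, blank spots included. That trial checked only the direction of changes planted in brighter probes. The wider spread of the bevacizumab array's blank spots is not covered by it. A fold for a probe seen on 1 array is a bound: the dim side is set to the lowest level detected on that array, or to the probe's level if that is higher. Control probes used for scaling and error were those named Spike Control or S-Probe and printed in 8 spots, all detected on both arrays. Hairpins were folded with RNAfold 2.7.2. Members, lists and rules (all members of fixed lists, the 3 nearest probes, seed mates) were chosen with earlier results of these data known. No precision between animals can be given from 1 array per group.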

Additional observations from a re-analysis of the deposited data

How the results depend on the processing

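No paired analysis was possible because each group has 1 array and no test was made. With 1 array per group none was left out. The alternative with blank-subtracted signals and no scaling between the arrays was chosen after seeing the data. Values are log2 differences, bevacizumab minus control, and the causes of the shifts were not tested.

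For miR-451a (-2.84 as reported) the value was -3.10 with median scaling, -3.23 both without the offset and after subtracting the blank mean, -2.47 with no background correction and -3.56 with local background. It was -5.72 with scaling to the control probes, -4.72 in the authors' deposited table and -3.45 without scaling. The miR-486 probe (0.82) was reversed with scaling to the control probes, at -0.48. It was 0.42 with cyclic loess, 1.63 without the offset, 1.62 after subtracting the blank mean, 0.52 with no background correction, 0.020 with local background, 0.53 in the authors' deposited table and 1.80 without scaling. It thus passed 2-fold in 3 of these.

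The contrast of miR-451a less miR-486 (-3.66) was -3.97 with median scaling, -3.32 with cyclic loess, -4.86 both without the offset and after subtracting the blank mean, -2.98 with no background correction and -5.25 with scaling to the control probes, in the authors' deposited table and without scaling.

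The bound of miR-144-3p (-1.67) was -2.07 with cyclic loess, -4.11 without the offset, -4.15 after subtracting the blank mean, -1.04 with no background correction and -0.35 with local background. It was -6.27 with scaling to the control probes, -5.27 in the authors' deposited table, -1.44 at a detection limit of 5 SD and -3.99 without scaling. The bound of miR-144-5p (-0.10) was -0.63 without the offset, -0.68 after subtracting the blank mean, -2.76 with scaling to the control probes, -1.76 in the authors' deposited table and -0.49 without scaling, and it was too dim for a bound at 5 SD. Of the 2 erythroid probes that both arrays detected, 1, miR-451a, was at least 2-fold lower as reported. The share was 11.6% of all 917 such probes, and 47.1% of the 189 brightest on the control array, miR-451a included. With no detection filter 2 of the 4 erythroid probes were at least 2-fold lower, when miR-144-3p counts at -1.70. The share of all probes without the filter was not counted, so that count has no comparison.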
